A study of Mus musculus with 12 samples.

Results

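The 10 genes described here encode drug efflux pumps and organic anion carriers of the mouse liver. They are the uptake carriers Slco1a1, Slco1a4, Slco1b2 and Slco2b1 and the ATP-driven pumps Abcb1a, Abcb11, Abcc2, Abcc3, Abcc4 and Abcg2. They were found by gene symbol among 26031 genes with a count in at least 1 sequenced library. Liver RNA came from C57BL/6N mice in 4 groups of 3 libraries, and all groups had started their diet at 6 weeks of age and kept it for 15 weeks. The PCN group ate high-fat diet and was injected intraperitoneally with pregnenolone 16α-carbonitrile (PCN) at 50 mg/kg once daily for 4 days (replicates 5, 11 and 27). The vehicle group ate high-fat diet and was given 30% DMSO in corn oil on the same schedule (replicates 15, 23 and 55). The high-fat-diet group received no treatment (replicates 4, 30 and 38), and the chow group ate regular chow with no treatment (replicates 8, 17 and 19). Whether every replicate number stands for its own mouse is not stated in the labels, so p-values measure the spread between these libraries, which may be technical.

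Hepatocytes take organic anions such as bile acids, bilirubin, steroid conjugates and many drugs from the blood through carriers of the Slco family, which sit on the sinusoidal membrane. Pumps of the Abc family then use ATP to move such compounds out again, either across the canalicular membrane into bile (Abcb1a, Abcb11, Abcc2 and Abcg2) or back across the sinusoidal membrane into blood (Abcc3 and Abcc4). PCN is a steroid-like ligand of the rodent pregnane X receptor (PXR, gene Nr1i2), a nuclear receptor of hepatocytes known to act on genes of drug metabolism and transport. PXR pairs with a retinoid X receptor and binds repeats of a short half-site.

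The 4 Slco genes differ in position and sequence. In GRCm38, Slco1b2 lies on the plus strand at chr6:141629518-141686646, and Slco1a4 (chr6:141805440-141856199) and Slco1a1 (chr6:141907282-141946962) follow it on the minus strand. Slco2b1 lies apart on the minus strand at chr7:99657804-99711340. The coding sequence of Slco1a4 was 86.7% identical to that of Slco1a1, 63.3% to Slco1b2 and 64.2% to Slco2b1. Among the pumps, Abcb1a (chr5:8660077-8748575, plus strand) was 88.2% identical in coding sequence to its neighbour Abcb1b and 64.7% to Abcb11. Abcc3 (chr11:94343295-94392997, minus strand) was 63.7% identical to Abcc2 and 63.2% to Abcc4.

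The upstream sequences of 3 genes are shown: Slco1a4 and Abcb1a, which had the largest rises under PCN, and Abcb11, the sole gene of the 10 called lower in any comparison (vehicle against chow). Each is the 250 bases before the gene's RefSeq start in GRCm38.p6, written 5′ to 3′ on the gene's own strand. Capitals mark the half-sites AGGTCA or AGTTCA, read on either strand, so that TGACCT and TGAACT are the same motifs on the other strand.
Slco1a4 (chr6:141856221-141856470, minus strand): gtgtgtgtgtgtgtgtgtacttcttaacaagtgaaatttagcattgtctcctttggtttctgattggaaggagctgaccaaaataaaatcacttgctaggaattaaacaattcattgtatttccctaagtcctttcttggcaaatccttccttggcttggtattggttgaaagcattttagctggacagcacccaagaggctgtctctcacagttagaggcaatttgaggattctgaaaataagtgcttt
Abcb1a (chr5:8566841-8567090, plus strand): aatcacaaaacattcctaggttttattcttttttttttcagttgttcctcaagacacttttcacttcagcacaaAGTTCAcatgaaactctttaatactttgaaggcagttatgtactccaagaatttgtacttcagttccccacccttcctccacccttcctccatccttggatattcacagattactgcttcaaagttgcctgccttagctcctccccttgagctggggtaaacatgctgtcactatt
Abcb11 (chr2:69342617-69342866, minus strand): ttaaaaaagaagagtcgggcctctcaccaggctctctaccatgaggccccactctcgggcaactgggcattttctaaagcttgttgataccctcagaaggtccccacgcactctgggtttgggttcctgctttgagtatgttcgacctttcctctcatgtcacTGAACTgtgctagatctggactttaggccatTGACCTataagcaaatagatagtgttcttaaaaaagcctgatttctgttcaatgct
The Slco1a4 window held neither half-site. The Abcb1a window held AGTTCA, from 176 to 171 bases before the start. The RefSeq start of Abcb1a lies 92986 bases upstream of the GENCODE M21 start given above, and the counts do not tell which start was used. The Abcb11 window held AGTTCA from 87 to 82 bases and AGGTCA from 56 to 51 bases before the start, both on the other strand.

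Single half-sites were common in such windows. At least 1 of AGGTCA and AGTTCA, on either strand, was found in 24.16% of 32851 mouse windows of the same length, and in 8 of the 14 windows of the carriers and pumps. These 14 windows belong to 9 genes, since Abcg2, Slco2b1 and Abcc4 have several RefSeq starts, and 7 of the 9 genes had a match in at least 1 window (all but Slco1a4 and Abcc4). A direct repeat of the half-sites with 3 bases between them was found in 0.01% of all windows, with 4 bases between them in 0.02%, and an everted repeat with 6 bases between them in 0.01%. None of the 14 windows held any of these 3 repeats. A match or its lack describes only the letters in the windows.

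Counts were at hand in all 12 libraries for Slco1a4, Slco2b1, Abcb1a and Abcc3, in the 9 libraries without PCN for Abcb11, and in the 6 vehicle and high-fat-diet libraries for Slco1a1, Slco1b2, Abcc2, Abcc4 and Abcg2. Of the 6 pairwise tables, 5 give values only for genes that passed the authors' threshold, so a gene has PCN or chow counts because it passed in some comparison, and the share of these genes that differ is no result. Other values in PCN or chow livers were not analysed here. Total counts were 7466378 to 38161486 in the 6 complete libraries, and about 11700000 to 36100000 by estimate from size factors in the other 6. Principal components of the 6 complete libraries set apart vehicle replicate 55 on the first (60.8, with the other 5 libraries from -28.2 to 16.2) and high-fat-diet replicate 38 on the second (50.9, with the other 5 from -35.6 to 15.7). Hepatocyte transcripts such as Alb and Ttr were abundant in every library, at 442051.6 or more and 43982.7 or more normalized counts. Those of fat and muscle (Adipoq, Plin1 and Acta1) summed to 0.0 to 3.1 normalized counts in the 6 complete libraries.

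PCN against vehicle asks what the PXR ligand changed on the same diet. Slco1a4, which takes up organic anions and cardiac glycosides, rose 6.04-fold, Abcb1a, the drug efflux pump P-glycoprotein, rose 3.30-fold, and Abcc3, which exports glucuronide conjugates to the blood, rose 1.78-fold. All 3 had an adjusted p under 0.05 by DESeq2 in the authors' deposited table, the threshold for every call below unless edgeR is named. In that comparison 1.07% of all genes tested, and 1.9% of the 13775 genes kept by an expression filter, were called higher, against 3 of the 10 genes described here. Values below are read counts divided by a library's size factor (normalized counts), means are ± SD with n = 3, and a fold is a ratio of such means. In this bulk tissue, fewer cells of a type and less RNA per cell cannot be told apart.

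Slco1a4 had 15188.5, 8613.9 and 11745.0 normalized counts in PCN livers 5, 11 and 27, against 2079.7, 2889.0 and 920.0 in vehicle livers 15, 23 and 55. The lowest PCN liver was thus well above the highest vehicle liver, while vehicle livers alone spread 3.14-fold. The means were 11849.1 ± 3288.5 in PCN livers and 1962.9 ± 989.7 in vehicle livers. The authors' deposited table gave a log2 change of 2.04 (SE 0.28) with an adjusted p of 1.05e-09, a value moderated toward 0 from the 2.59 of the means. The fold was 4.77 without vehicle replicate 55 and 7.90 without vehicle replicate 23. Slco1a4 shares 1.61% of its 50-base stretches with other genes, nearly all with Slco1a5.

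Abcb1a, 1 of the mouse genes for P-glycoprotein, had 784.9, 315.0 and 562.8 normalized counts in PCN livers, against 136.1, 270.7 and 97.7 in vehicle livers. The groups did not overlap, but PCN replicate 11 lay close to vehicle replicate 23. The means were 554.2 ± 235.1 in PCN livers and 168.1 ± 90.8 in vehicle livers. In the authors' deposited table the log2 change was 1.29 (SE 0.30), and the adjusted p was 0.003171. The fold ranged from 2.61 without PCN replicate 5 to 4.74 without vehicle replicate 23. Reads of Abcb1a and Abcb1b cannot be fully told apart, since 17.6% of the 50-base stretches of Abcb1a occur in other genes, mostly in Abcb1b. Abcb1b itself had 24.9 ± 4.7 normalized counts in vehicle livers and 20.1 ± 3.8 in high-fat-diet livers. A further 10.1% of Abcb1a exon bases overlap a gene on the opposite strand (Gm42686), and the strand setting of the counting is not given in the sources used here.

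Abcc3 had 21628.3, 14527.7 and 24255.6 normalized counts in PCN livers, against 9953.5, 13727.4 and 10314.3 in vehicle livers. Here too the groups did not overlap, and PCN replicate 11 was again the lowest of its group and vehicle replicate 23 the highest of its own. The means were 20137.2 ± 5032.5 in PCN livers and 11331.7 ± 2082.5 in vehicle livers. The authors' deposited table gave a log2 change of 0.74 (SE 0.21) with an adjusted p of 0.03301.

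Slco2b1, an uptake carrier for steroid sulfates and several drugs, had 6009.2, 5026.2 and 5741.4 normalized counts in PCN livers, against 4789.6, 3715.9 and 4334.4 in vehicle livers. All PCN livers were above all vehicle livers, but the ratio of means, 1.31, did not pass the authors' threshold. About 9.2% of Slco2b1 exon bases overlap genes on the opposite strand.

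**Figure D1:**
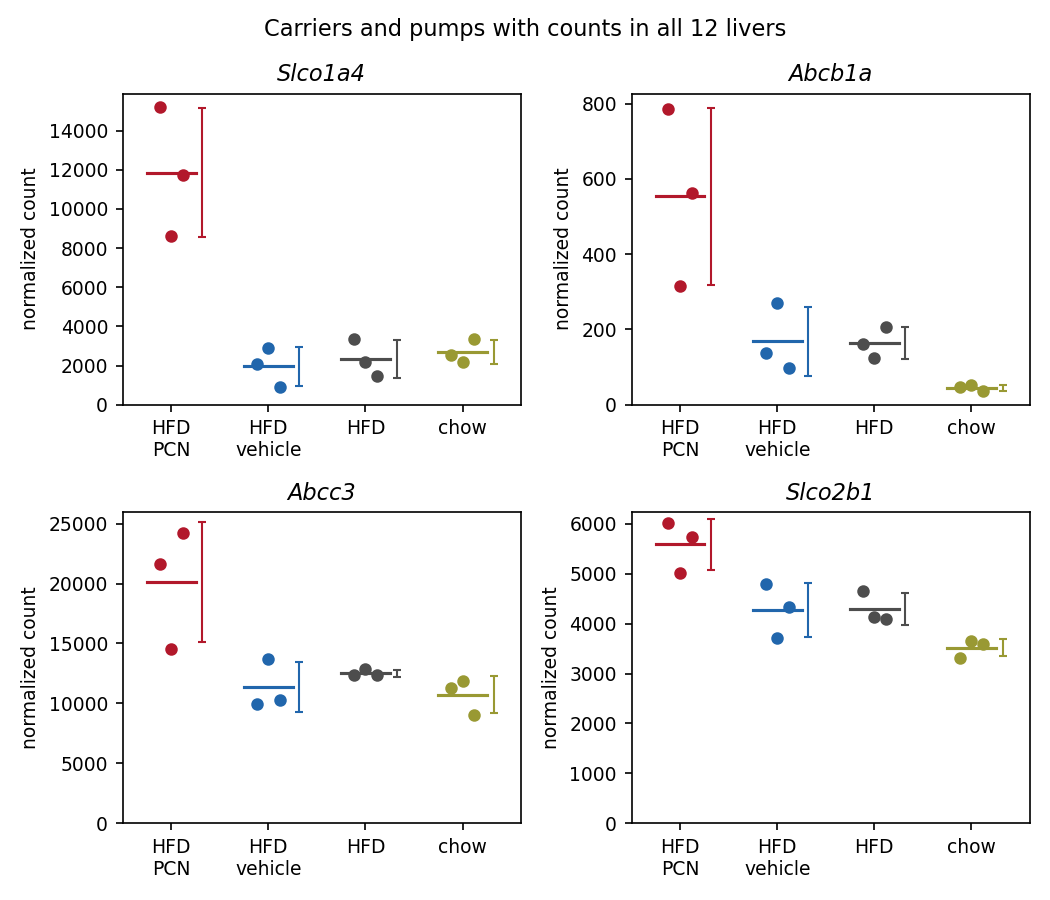
Normalized counts (read counts divided by size factors, linear axes from 0) of Slco1a4, Abcb1a, Abcc3 and Slco2b1 in PCN, vehicle, high-fat-diet and chow livers. Points are libraries, horizontal lines are means and side bars are ± 1 SD (n = 3). PCN livers are the highest group for each gene, and Abcb1a is lowest in chow livers, at 36.5 to 51.0.

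These calls depended on the test. In edgeR's quasi-likelihood test of the same counts, with Benjamini-Hochberg adjustment over the estimated 25880 genes tested, 0 of the 4 genes with counts passed, and all 4 had an unadjusted p under 0.05. Of the 2440 genes with such counts, 15 passed and 1153 had an unadjusted p under 0.05. These genes have PCN counts because they passed the authors' threshold in some comparison, so a low unadjusted p is no independent support. The adjusted p was 0.134 for Slco1a4, 0.243 for Abcb1a, 0.347 for Abcc3 and 0.844 for Slco2b1. Over fits that left out 1 library each, the edgeR adjusted p of Slco1a4 ranged from 0.114 to 0.491. The reference genes for the response to PCN were Cyp3a11, Ces2a, Gstm3 and Cyp2b10. Cyp2b10 had no counts in PCN livers, so it passed the authors' threshold in no PCN comparison. Cyp3a11, Ces2a and Gstm3 moved further than the carriers and pumps with PCN counts. Cyp3a11, a steroid and drug hydroxylase, averaged 668282.0 ± 283287.5 normalized counts in PCN livers and 10422.1 ± 9760.0 in vehicle livers. This 64.1-fold rise passed in the authors' deposited table (adjusted p = 0.0001899) and not in edgeR (0.0821). Without vehicle replicate 23, the highest of its group for Cyp3a11, that fold was 138.8. Ces2a, a carboxylesterase, rose 19.1-fold (adjusted p = 1.81e-39 in the authors' deposited table, 0.0201 by edgeR). PCN replicate 11 was the lowest PCN liver for Slco1a4, Slco2b1, Abcb1a and Abcc3 and also for Cyp3a11, Ces2a and the glutathione transferase Gstm3, and it was the shallowest library of its group.

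Cell type markers were compared between PCN and vehicle livers as well. The authors' deposited table called 0 of 6 hepatocyte, 0 of 8 macrophage, 0 of 8 endothelial, 0 of 8 stellate and 0 of 6 bile duct markers, and 1 of 4 gut markers (Fabp2, lower in PCN livers). The 5 hepatocyte markers with counts, none of them at 0, summed to 848379.4 to 1318975.3 normalized counts in PCN livers and 1231747.3 to 1959077.8 in vehicle livers. The part of these sums in the transporter results was not tested.

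Against the untreated high-fat diet, the same 3 genes were called higher in PCN livers, as were 1.9% of all genes tested and 3.37% of those kept by the expression filter. This comparison and the one above share the PCN libraries. Slco1a4 had 3371.8, 2165.7 and 1487.1 normalized counts in high-fat-diet livers 4, 30 and 38, so every PCN liver, at 8613.9 or more, lay above them. The fold was 5.06, with adjusted p = 4.19e-12 in the authors' deposited table and 0.0384 by edgeR. With 1 library left out the edgeR adjusted p was 0.0357 to 0.166, and it passed only without PCN replicate 11. Abcb1a averaged 554.2 ± 235.1 normalized counts in PCN livers and 163.6 ± 41.7 in high-fat-diet livers, a 3.39-fold rise (adjusted p = 5.87e-06 in the authors' deposited table, 0.0733 by edgeR). Abcc3 averaged 20137.2 ± 5032.5 in PCN livers and 12522.3 ± 281.6 in high-fat-diet livers, a 1.61-fold rise (adjusted p = 0.0254 in the authors' deposited table, 0.343 by edgeR). The 3 high-fat-diet livers were nearly equal for Abcc3, at 12377.1, 12847.0 and 12343.0. The 1.30-fold difference of Slco2b1 was not called, with groups that did not overlap. Among the cell type markers, the authors' deposited table called Lyve1 (endothelial), Col1a1 (stellate), Fabp2 (gut) and Ttr (hepatocyte) lower in PCN livers and Serpina1a (hepatocyte) higher. The 5 hepatocyte markers with counts summed to 848379.4 to 1318975.3 normalized counts in PCN livers and 1483118.0 to 2012838.9 in high-fat-diet livers. The 2 stellate markers summed to 1002.2 to 1623.9 in PCN livers and 1992.9 to 3225.0 in high-fat-diet livers, and Lyve1 to 531.6 to 826.3 in PCN livers and 1085.7 to 1272.5 in high-fat-diet livers. None of these markers was at 0, and their part in the transporter results was not tested.

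PCN against chow combines diet, injection and compound, which this pair of groups cannot separate. Here 4 of the 10 genes were called higher, against 4.43% of all genes tested and 7.64% of those kept by the expression filter. Abcb1a had 46.8, 51.0 and 36.5 normalized counts in chow livers 8, 17 and 19, so its mean in PCN livers, 554.2 ± 235.1, was 12.4 times the chow mean of 44.8 ± 7.5. The adjusted p was 9.01e-30 in the authors' deposited table and 0.00568 by edgeR. This was the largest fold among the carriers and pumps, and it rests on 127 chow reads in all. Slco1a4 had 2525.6, 2205.3 and 3356.0 normalized counts in chow livers, and its 4.40-fold rise in PCN livers reached adjusted p = 9.05e-20 in the authors' deposited table and 0.00873 by edgeR.

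Abcc3 had 11319.9, 11881.7 and 8997.0 normalized counts in chow livers. It rose 1.88-fold in PCN livers (adjusted p = 0.0002129 in the authors' deposited table, 0.0815 by edgeR). Slco2b1 averaged 5592.3 ± 508.2 in PCN livers and 3520.8 ± 178.6 in chow livers (3318.7, 3657.7 and 3586.0). Its 1.59-fold rise was called in this comparison (adjusted p = 2.81e-05 in the authors' deposited table, 0.0414 by edgeR), and with 1 library left out the edgeR call held only without PCN replicate 11. Leaving out chow replicate 8 took Slco1a4 to an edgeR adjusted p of 0.0502, while Abcb1a passed in edgeR whichever library was left out. Of the hepatocyte markers, 4 of 6 (Alb, Ttr, Apob and Tat) were lower in PCN livers than in chow livers in the authors' deposited table, and the 5 with counts summed to 848379.4 to 1318975.3 normalized counts in PCN livers and 2050933.7 to 2288467.5 in chow livers. That table also called Col1a1 and Col3a1 (stellate), Cd68 (macrophage) and Krt19 (bile duct) higher in PCN livers, and Sox9 (bile duct) and Fabp2 (gut) lower. Col1a1 and Col3a1 summed to 1002.2 to 1623.9 in PCN livers and 343.3 to 452.8 in chow livers, and Cd68 had 91.0 to 138.1 in PCN livers and 60.6 to 62.5 in chow livers. The part of these markers in the results was not tested.

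High-fat diet against chow, both untreated, compares the diets. Of the 10 genes 1 was called higher in high-fat-diet livers, where 2.81% of all genes tested and 5.1% of those kept by the expression filter were called higher. Abcb1a had 161.3, 123.1 and 206.4 normalized counts in high-fat-diet livers, against 46.8, 51.0 and 36.5 in chow livers. Every high-fat-diet liver was above every chow liver. The means were 163.6 ± 41.7 in high-fat-diet livers and 44.8 ± 7.5 in chow livers, a 3.66-fold rise (adjusted p = 5.45e-09 in the authors' deposited table). It also passed in edgeR (adjusted p = 0.0386), but after leaving out 1 library the edgeR adjusted p was 0.0443 to 0.168, and it passed only without high-fat-diet replicate 30.

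Abcb11, the bile salt export pump of the canalicular membrane, had 8014.7, 8929.5 and 4332.6 normalized counts in high-fat-diet livers, against 11576.1, 10454.9 and 10974.5 in chow livers. The groups did not overlap, and high-fat-diet replicate 38 lay well below the other 2. The means were 7092.3 ± 2433.3 in high-fat-diet livers and 11001.9 ± 561.1 in chow livers, a ratio of 0.64 that the authors' table did not call (edgeR adjusted p = 0.616). Slco2b1 averaged 4294.4 ± 320.5 in high-fat-diet livers and 3520.8 ± 178.6 in chow livers, with groups that did not overlap and no call. Abcc3 averaged 12522.3 ± 281.6 in high-fat-diet livers and 10732.9 ± 1529.4 in chow livers, without overlap or call. Slco1a4 averaged 2341.6 ± 954.6 in high-fat-diet livers and 2695.7 ± 593.9 in chow livers, and its groups overlapped.

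Transcripts of other cell types differed between these diets. In high-fat-diet livers 3 of 8 macrophage markers (Adgre1, Vsig4 and C1qa) and 3 of 8 stellate markers (Col1a1, Col3a1 and Pdgfrb) were called higher in the authors' deposited table. Of the endothelial markers Lyve1 was called higher and Kdr lower, and their sums overlapped. The bile duct marker Spp1 was called higher. Bile duct markers with counts summed to 321.2 to 934.4 normalized counts in high-fat-diet livers and 170.2 to 285.9 in chow livers. The 4 macrophage markers with counts summed to 1716.6 to 2732.3 normalized counts in high-fat-diet livers and 1081.0 to 1433.7 in chow livers. The 3 stellate markers summed to 2209.0 to 3489.1 in high-fat-diet livers and 463.3 to 633.8 in chow livers, and no marker with counts was at 0. The hepatocyte markers Apoa1 and Serpina1a were lower, and the sum over all 6 was 1570411.1 to 2103870.9 in high-fat-diet livers and 2174997.6 to 2406406.3 in chow livers. Their part in the difference of Abcb1a was not tested.

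With vehicle against chow, 1 of the 10 genes was called higher, as were 1.72% of all genes tested and 3.17% of those kept by the expression filter. Another 1 was called lower, as were 1.38% of all genes tested and 2.5% of those kept by the filter. Abcb1a averaged 168.1 ± 90.8 normalized counts in vehicle livers and 44.8 ± 7.5 in chow livers, a 3.76-fold rise (adjusted p = 0.0001048 in the authors' deposited table). Abcb11 had 8036.3, 7452.6 and 5875.2 normalized counts in vehicle livers, all below the 3 chow livers. Its mean fell to 7121.3 ± 1118.0 in vehicle livers, against 11001.9 ± 561.1 in chow livers (log2 change -0.60, SE 0.15, adjusted p = 0.005513 in the authors' deposited table). The ratio of means was 0.65, close to the 0.64 of the untreated diet, whose libraries spread more widely. In edgeR neither passed, with an adjusted p of 0.107 for Abcb1a and 0.193 for Abcb11, both with an unadjusted p under 0.05. That unadjusted threshold was met by 1506 of the 2862 genes with counts in both groups. Between vehicle and chow the authors' deposited table called 0 of 6 hepatocyte, 0 of 8 macrophage and 0 of 8 stellate markers, and the bile duct marker Spp1 was higher in vehicle livers. The 6 hepatocyte markers summed to 1319279.2 to 2064125.2 normalized counts in vehicle livers and 2174997.6 to 2406406.3 in chow livers. The 2 endothelial markers with counts summed to 951.5 to 1623.3 in vehicle livers and 1696.1 to 1993.1 in chow livers. Macrophage and stellate sums overlapped between the groups. The part of these markers in the results was not tested. The chow libraries are shared with the comparison above.

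**Figure D2:**
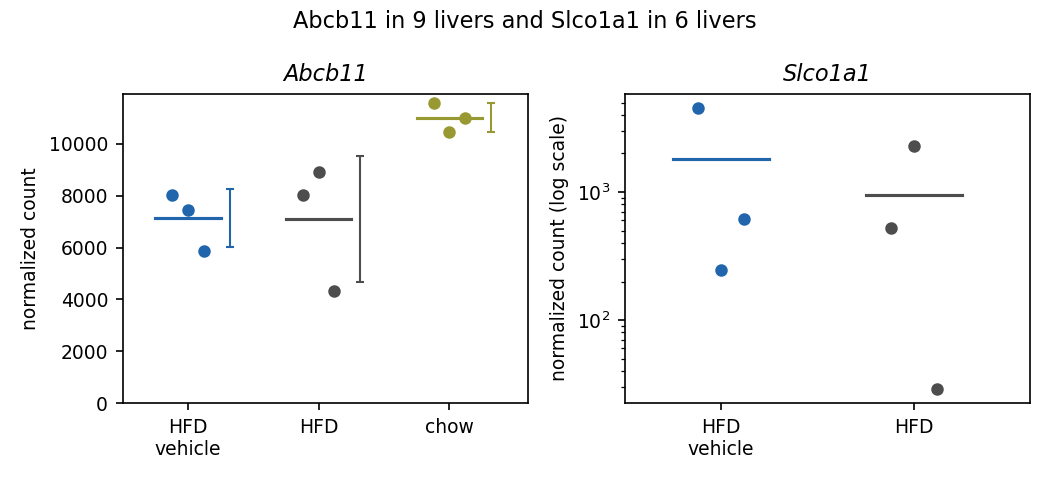
Normalized counts of Abcb11 (left, linear axis from 0) in vehicle, high-fat-diet and chow livers and of Slco1a1 (right, log axis) in vehicle and high-fat-diet livers. Points are libraries, horizontal lines are means, and side bars on the left are ± 1 SD (n = 3). All vehicle and high-fat-diet livers lie below chow for Abcb11, and Slco1a1 runs between 28.9 and 4566.7 with partly overlapping groups.

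Vehicle against the untreated high-fat diet could be tested for all 10 genes, and all 10 passed the expression filter. None was called by edgeR, by the authors' deposited table or by a DESeq2 refit, and 0 of 10 had an unadjusted p under 0.05 in edgeR. Over all 13775 genes, edgeR called 0.00726% (1 gene), the authors' deposited table called 1.5% of them (0.792% of all genes the authors tested), and 12.5% had an unadjusted p under 0.05. The median log2 ratio of the 10 genes was -0.002, beside 0.019 over all genes, and the median size of the log2 ratio was 0.124, beside 0.212.

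Most of the 10 genes had similar means in both groups. Slco2b1 had a log2 ratio of -0.01 (SE 0.14, edgeR) and averaged 4280.0 ± 538.9 normalized counts in vehicle livers and 4294.4 ± 320.5 in high-fat-diet livers. Abcg2, a canalicular pump for sulfated steroids and drugs, averaged 1905.3 ± 390.1 in vehicle livers and 1954.1 ± 166.5 in high-fat-diet livers (log2 ratio -0.04, SE 0.16). Abcc2, the canalicular pump for bilirubin glucuronides, averaged 20363.3 ± 2388.5 in vehicle livers and 17820.4 ± 3160.3 in high-fat-diet livers (log2 ratio 0.19, SE 0.19). The groups overlapped for each of these genes. Slco1b2, which takes up bile acids and bilirubin, had 35696.0, 41688.8 and 30842.3 normalized counts in vehicle livers, against 36588.4, 42179.5 and 22257.7 in high-fat-diet livers. By normalized counts, high-fat-diet replicate 38 was the lowest of its group for 9 of the 10 genes, all but Abcb1a. Vehicle replicate 55 was the lowest of its group for 7. The order in replicate 38 depended on the scaling. Per exon length and library total (RPKM), it was the highest of its group for Abcc3 (130.71), Slco2b1 (41.41) and Abcg2 (13.70). By RPKM it was also not the lowest for Abcc4. The share of all genes lowest in these libraries was not computed. Abcc3 averaged 11331.7 ± 2082.5 in vehicle livers and 12522.3 ± 281.6 in high-fat-diet livers (log2 ratio -0.15, SE 0.17).

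Abcc4, a sinusoidal efflux pump for bile acids and nucleotides, was the sole gene of the 10 whose groups did not overlap. It had 65.2, 65.4 and 58.0 normalized counts in vehicle livers, against 94.8, 80.7 and 73.2 in high-fat-diet livers. The log2 ratio was -0.41 (SE 0.20), and the edgeR p of 0.0755 became 0.442 after adjustment. Of all 13775 genes, 9.99% had every vehicle liver below every high-fat-diet liver and 19.6% did not overlap in either direction, so 1 of 10 is near or under the background. The 8 endothelial markers summed to 4453.4 to 6811.7 normalized counts in vehicle livers and 7337.6 to 8030.6 in high-fat-diet livers, and the 8 stellate markers to 6618.0 to 10563.7 in vehicle livers and 10911.1 to 13548.2 in high-fat-diet livers, none of them at 0. Within these 2 lists Kdr, Clec4g and Ecm1 had higher means in vehicle livers. Blood and lymphocyte markers summed to 2786.9 to 3491.7 in vehicle livers and 4645.5 to 5167.0 in high-fat-diet livers. Gut markers with counts summed to 1045.0 to 1430.6 in vehicle livers and 2101.9 to 2727.6 in high-fat-diet livers. Hepatocyte, macrophage and bile duct sums overlapped. The authors' deposited table called Cdh5, Lyve1, Hbb-bs and Fabp2 lower in vehicle livers. The part of these markers in the values of Abcc4 was not tested.

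Slco1a1, a carrier for steroid conjugates that in mice is higher in male liver, varied most. It had 4566.7, 243.9 and 619.8 normalized counts in vehicle livers, against 522.1, 2308.4 and 28.9 in high-fat-diet livers. The spread was 18.7-fold within vehicle livers and 79.9-fold within high-fat-diet livers. The lowest value came from 13 reads in high-fat-diet replicate 38, with an exact Poisson 95% interval of 15.4 to 49.3 normalized counts, and the highest from 4833 reads (4438.8 to 4697.3), so counting error is small beside the spread. These intervals cover counting error only. The ratio of means was 1.90 and turned to 0.45 without vehicle replicate 15, and it reached 6.57 without high-fat-diet replicate 30. The edgeR log2 ratio was 0.91 (SE 1.30, adjusted p = 0.785). Slco1a4, the neighbour of Slco1a1 with 86.7% of its coding bases in common, did not follow it in every library. Among vehicle livers Slco1a4 was highest in replicate 23, where Slco1a1 was lowest. Among high-fat-diet livers both were lowest in replicate 38, while Slco1a4 was highest in replicate 4 and Slco1a1 in replicate 30. Xist, a transcript of female cells, had 1.9 to 3.1 normalized counts in vehicle livers and 1.0 to 3.3 in high-fat-diet livers. The Y-linked gene Ddx3y had 1733.1 to 1854.0 in vehicle livers and 1338.4 to 1892.7 in high-fat-diet livers. By these transcripts none of these libraries looked female. The cause of the spread of Slco1a1 was not tested.

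**Figure D3:**
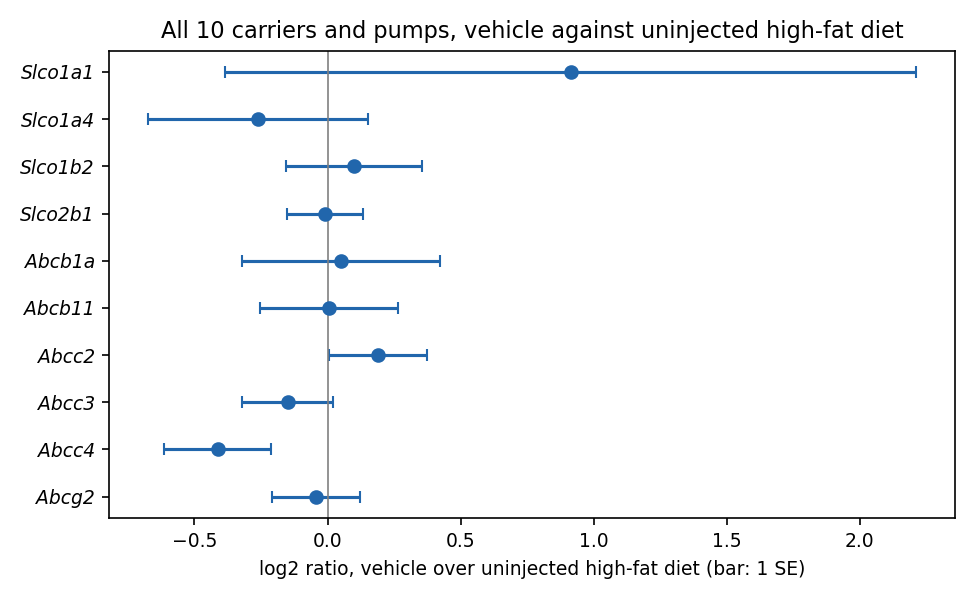
Log2 ratio of vehicle over untreated high-fat-diet livers for the 10 genes, from edgeR. Points are estimates and bars are ± 1 SE (n = 3 libraries per group). Slco1a1 has by far the widest bar (SE 1.30), and Abcc4 has the lowest estimate, at -0.41.

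Levels can be compared between genes as read counts divided by exon length and library total (RPKM) in the 6 complete libraries. Slco1b2 was highest, at 361.33 ± 58.36 RPKM in vehicle livers and 367.25 ± 85.14 in high-fat-diet livers. Abcc2, at 117.65 ± 12.98 RPKM in vehicle livers and 113.27 ± 11.86 in high-fat-diet livers, and Abcc3, at 98.32 ± 19.99 and 120.21 ± 9.10 in the same 2 groups, came next and overlapped each other. Abcb11 followed with 68.18 ± 9.98 RPKM in vehicle livers and 73.90 ± 20.27 in high-fat-diet livers, and Slco2b1 with 35.37 ± 3.68 in vehicle livers and 39.39 ± 3.43 in high-fat-diet livers. In each group the ranges of Abcb11 and Slco2b1 were apart from each other and from those of Abcc2 and Abcc3.

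Slco1a4, Abcg2 and Slco1a1 followed, and the range of Slco1a1 overlapped those of the other two in both groups. Slco1a4 and Abcg2 overlapped in vehicle livers, while in high-fat-diet livers Slco1a4 (13.99 to 27.76 RPKM) lay just above Abcg2 (12.08 to 13.70). Slco1a4 had 15.12 ± 7.77 RPKM in vehicle livers and 19.67 ± 7.19 in high-fat-diet livers, and Abcg2 had 11.53 ± 2.39 in vehicle livers and 13.08 ± 0.87 in high-fat-diet livers. Slco1a1 ran from 2.32 to 41.56 RPKM in vehicle livers and from 0.33 to 22.36 in high-fat-diet livers. This span also reaches Slco2b1 and Abcb1a in vehicle livers, and Abcb1a and Abcc4 in high-fat-diet livers. Abcb1a (1.52 ± 0.84 RPKM in vehicle livers, 1.66 ± 0.57 in high-fat-diet livers) and Abcc4 (0.48 ± 0.03 in vehicle livers, 0.71 ± 0.07 in high-fat-diet livers) had the lowest means, and their ranges were apart from each other. Abcb1a, with a 3.30-fold rise between PCN and vehicle, was thus 1 of the less abundant transcripts of the set by length.

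**Figure D4:**
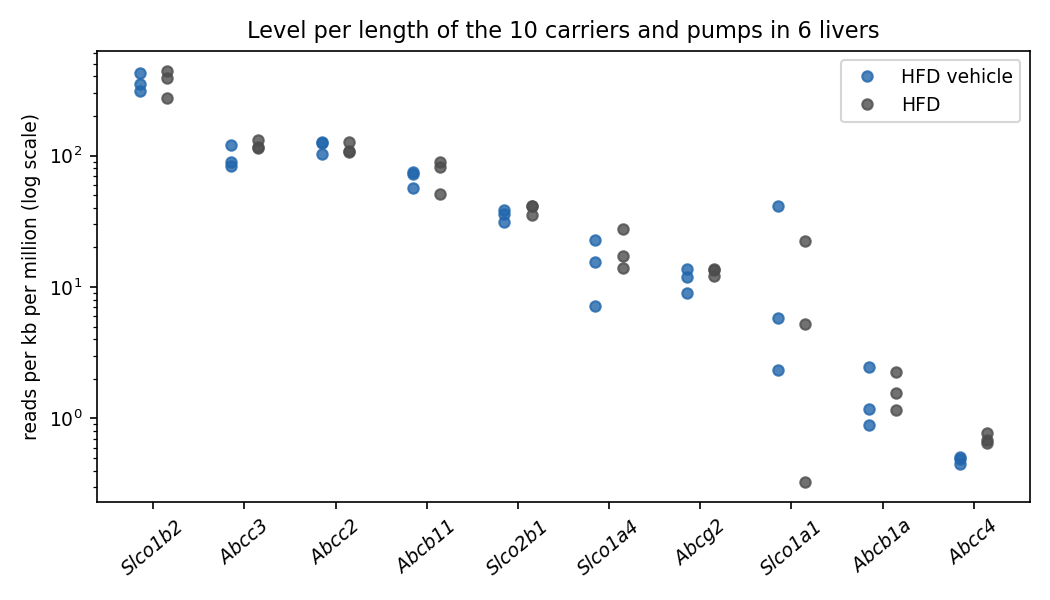
Read counts per exon length and library total (RPKM, log axis) of the 10 genes in vehicle and untreated high-fat-diet livers, 1 point per library. The levels run from 437.32 for Slco1b2 to 0.33 for Slco1a1 in high-fat-diet replicate 38, and Slco1a1 has the widest span.

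Of 26 other transporters of bile acids, drugs and sterols, 24 had counts. Between PCN and vehicle none was called higher and 1 lower in the authors' deposited table, where 0.641% of all genes tested were called lower. This was Atp8b1, a phospholipid flippase of the canalicular membrane. It averaged 999.7 ± 7.2 normalized counts in PCN livers and 1387.5 ± 36.1 in vehicle livers (adjusted p = 0.04033 in the authors' deposited table, 0.204 by edgeR). In untreated high-fat-diet livers Atp8b1 averaged 993.7 ± 222.8, close to PCN livers (PCN over high-fat diet 1.01). Every vehicle liver lay above every high-fat-diet liver, without a call. Slco2a1, a prostaglandin carrier, averaged 361.9 ± 79.3 in high-fat-diet livers and 980.5 ± 42.7 in chow livers and was the sole call of the list there (adjusted p = 5.21e-13 in the authors' deposited table, 0.0278 by edgeR), where 2.05% of all genes tested were called lower. Abcg5 and Abcg8, which together export sterols into bile, were called higher in PCN livers than in chow livers, 2.41-fold and 1.94-fold, with edgeR adjusted p of 0.00675 and 0.0131. Slco2a1 (edgeR adjusted p = 0.0272), Slc22a5 (0.0737) and Abcb4 (0.0573) were called lower in the authors' deposited table, as were 3.67% of all genes tested. Against untreated high-fat diet, Slco2a1, Abcg5 and Abcg8 were called higher in PCN livers, none of them by edgeR (adjusted p = 0.0619 to 0.137, all with an unadjusted p under 0.05). So low an unadjusted p was found for 1304 of the 2449 genes with counts in both groups. Between vehicle and chow the authors called Abcc10 higher (edgeR adjusted p = 0.253) and Slco2a1 (0.0425) and Abcb4 (0.141) lower. Between vehicle and high-fat diet the authors called 0 of the 24, and edgeR called 0 of the 19 kept by its filter. Of those 19, 3 (Slco2a1, Abcb4 and Atp8b1) had an unadjusted p under 0.05, as did 12.5% of all 13775 genes kept. Abcb4, the canalicular phospholipid pump, averaged 6708.5 ± 1495.3 in vehicle livers and 11925.1 ± 777.8 in chow livers, so it was called lower where Abcb11 was (adjusted p = 0.0006912 in the authors' deposited table).

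Of 14 receptors and factors known to act on transporter genes, Nr0b2, a corepressor induced by bile acid signalling, was the 1 called between PCN and vehicle. It averaged 232.4 ± 121.0 normalized counts in PCN livers and 574.2 ± 211.6 in vehicle livers, with groups that overlapped (adjusted p = 0.04822 in the authors' deposited table, 0.474 by edgeR). In untreated high-fat-diet livers Nr0b2 averaged 290.9 ± 119.4, which overlapped both groups and was called against neither. The ratio to high-fat-diet livers was 0.80 for PCN livers and 1.97 for vehicle livers. Nr1i2, which encodes PXR, averaged 2221.4 ± 234.7 in vehicle livers and 1522.2 ± 176.8 in chow livers and was called higher there (adjusted p = 0.02408 in the authors' deposited table, 0.181 by edgeR). Nr1i3, which encodes the related receptor CAR, averaged 5407.4 ± 826.0 in vehicle livers and 3498.6 ± 212.1 in high-fat-diet livers, called in the authors' deposited table (adjusted p = 0.03709) and not by edgeR (0.233). Its means were 5738.5 ± 802.2 in PCN livers and 3480.7 ± 342.2 in chow livers. The authors also called it higher in vehicle livers than in chow livers (adjusted p = 0.006505, edgeR 0.172). In PCN livers they called it higher than in high-fat-diet livers (0.0002874, edgeR 0.096) and chow livers (0.0001166, edgeR 0.0511). Nr0b2 and Hnf4a, a regulator of hepatocyte genes, were called lower in high-fat-diet livers than in chow livers in the authors' deposited table, and not by edgeR (adjusted p = 0.192 and 0.374). The authors called both lower in PCN livers than in chow livers as well (edgeR adjusted p = 0.0764 and 0.0683). They called Keap1 higher in PCN livers than in high-fat-diet livers (adjusted p = 0.01468, edgeR 0.131).

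The genes whose levels ran most like those of the 4 genes with 12 libraries were taken by Pearson's r of log2 normalized counts over the 12 libraries, among 1956 genes with counts in all of them. For Slco1a4 they included Cox7a2l (r = 0.964) and C1qbp (0.951), and for Abcb1a Dhrs7 (0.959) and Man2b2 (0.952). For Abcc3 they were Ugdh (0.966), Entpd5 (0.962) and Fbxw9 (0.951), and for Slco2b1 Pold2 (0.952), Glmp (0.933) and Siva1 (0.924). These values describe 12 libraries in 4 groups and the genes were selected for likeness, so they carry no test.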

How the data were processed

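Liver RNA of 12 libraries, 3 per group, was sequenced on Illumina libraries, per the labels' protocols. The submitters' processing notes name HISAT2, HTSeq and DESeq2 and the build GRCm38 (mm10), and their versions and settings are not given in the sources used here. What the authors deposited is 6 tables, 1 for each pair of groups, with raw counts per gene and library and, per the file headers, the DESeq2 mean, log2 change, SE, p-value and adjusted p. The vehicle against high-fat-diet table is complete (26015 genes). The other 5 list values for called genes alone (adjusted p under 0.05). Log2 changes in them are moderated toward 0.

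Counts agreed between tables (15768 values compared, 0 differed). Each library's size factor was solved from the counts and the deposited means, then put on 1 scale (largest difference 0.52%). Totals of PCN and chow libraries were estimated from them. The complete table was tested with edgeR 4.0.16 (quasi-likelihood, TMM, expression filter, Benjamini-Hochberg, two-sided). In the other 5 tables the deposited adjusted p was the test, and the counts at hand were tested again with edgeR, using the complete table's dispersion trend and prior and the number of genes the authors tested, estimated as 25101 to 25880. DESeq2 1.42.0, other scaling, no filter and leaving out each library were alternatives. With 3 libraries per group an exact permutation test of 1 gene cannot go below p = 0.10. RPKM used GENCODE M21 exon lengths. All 10 genes are described, by symbol; some genes of like pattern are not reported here. The genes, lists and tests were chosen with earlier results of these data known. Promoter windows are RefSeq, GRCm38.p6, with an entry for 9 of 10 genes.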

Additional observations from a re-analysis of the deposited data

How the results depend on the processing

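The counts of called carriers and pumps in the 5 incomplete tables depended on the test. With edgeR on the counts at hand in place of the authors' deposited adjusted p, PCN against vehicle gave 0 (deposited 3), PCN against high-fat diet 1 (deposited 3) and vehicle against chow 0 (deposited 2). PCN against chow gave 3 (deposited 4), and high-fat diet against chow gave 1 under both. Over all genes with counts in both groups, edgeR called 15 of 2440 in PCN against vehicle and 136 of 2449 in PCN against high-fat diet. It called 94 of 2862 in vehicle against chow, 776 of 2241 in PCN against chow and 111 of 2870 in high-fat diet against chow. When each library was left out in turn under edgeR, the counts were 0 to 0 for PCN against vehicle, 0 to 2 for PCN against high-fat diet, 0 to 0 for vehicle against chow, 1 to 4 for PCN against chow and 0 to 1 for high-fat diet against chow. The highest counts of the PCN comparisons came without PCN replicate 11, and the 1 of high-fat diet against chow without high-fat-diet replicate 30. Vehicle against high-fat diet stayed at 0 under DESeq2, DESeq2 size factors, no expression filter, each library left out, and vehicle replicate 55 and high-fat-diet replicate 38 left out together, the last chosen after seeing the data. The cause of these differences was not tested. Of the ratios of group means, all 192 with 1 library left out, all 32 under TMM scaling and all 10 under library totals moved by less than 1 SD between libraries on the log2 scale. With 3 libraries per group, leaving 1 out can hardly move a mean by that much. The limit was thus nearly sure to be met and does not show that the ratios were stable. Slco1a1 was the gene whose ratio moved most, from 1.90 to 0.45 without vehicle replicate 15 (vehicle against high-fat diet). No paired analysis was possible because the groups share no replicate number. Depth limits Abcc4 and Abcb1a most, with 192 reads of Abcc4 over the 3 vehicle livers and 127 of Abcb1a over the 3 chow livers.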

Other observations

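Over the 6 vehicle and high-fat-diet libraries, the levels of Slco1a1 ran with those of several other liver genes. Pearson's r with Slco1a1, on log2 normalized counts, was 0.972 for Cyp4f14, 0.967 for Mup3, 0.967 for Mup10 and 0.960 for Mup18, which encode a fatty acid hydroxylase and major urinary proteins, the Mup genes being known for higher expression in male mice. It was 0.915 for Slc22a7, an organic anion transporter that averaged 502.6 ± 310.6 normalized counts in vehicle livers and 170.3 ± 150.7 in high-fat-diet livers (SD, n = 3 each, edgeR adjusted p = 0.411). In the same 6 libraries Xist was at 3.3 normalized counts or less and Ddx3y at 1338.4 or more. The genes named for their r with Slco1a1 were chosen after their values were seen, from 10559 compared. Mup genes are near-identical copies whose reads may be split between them. The values are thus a description with no test.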
